A study of Homo sapiens with 4 samples.

Results

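MHC class II molecules are the surface proteins that present peptides to CD4+ T cells, and 10 genes of their pathway were followed across the 4 arrays of a ZEB2 knockdown study. They are the chain genes HLA-DRA, HLA-DRB1, HLA-DRB4, HLA-DPA1 and HLA-DPB1, the peptide-loading genes HLA-DMA, HLA-DMB and HLA-DOA, the invariant chain gene CD74, and CIITA. Members were taken by gene symbol, and the set was chosen from earlier results of these same arrays. Their values are therefore a description, and no test was made of them. The 10 genes are read by 24 probe sets that carry exactly 1 symbol, out of 41097 such probe sets for 19775 genes. All 10 passed the filter on low values, which kept 15082 genes whose highest value reached 4.77 on the log2 scale.

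The cells were MDA-MB-231, an established line from a human breast carcinoma, hormone receptor-negative and mesenchymal in character. A stable line carrying shRNA against ZEB2 was set beside a stable line carrying the vector control pLVTH. In a separate, transient arm, cells given a pool of siRNAs against ZEB2 were set beside cells given siRNA against luciferase, each at 20 nM, with a wash after 24 hours and harvest 48 hours later. ZEB2 encodes a zinc-finger repressor of transcription that takes part in epithelial-mesenchymal transition. All 4 cultures were MDA-MB-231 in the same medium, and no label names a cytokine treatment. The sources used here do not say whether a stable line was a pool of cells or 1 clone. RNA labelling started from 2 µg for the shRNA arrays and from 100 ng for the siRNA arrays, so labelling input and method of knockdown cannot be told apart when the arms are compared.

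Class II molecules are pairs of an alpha and a beta chain (DR, DP or DQ). They assemble in the endoplasmic reticulum with the invariant chain CD74, which fills the peptide groove and steers the complex to endosomes. There the invariant chain is degraded by cathepsins, HLA-DM exchanges its last fragment for antigenic peptide, and HLA-DO restrains HLA-DM. Transcription of the whole set is switched on by the coactivator CIITA, which does not bind DNA itself and is recruited by factors (RFX, CREB and NF-Y) seated on conserved X and Y boxes of the promoters. Professional antigen-presenting cells make class II constitutively. Most other cells, carcinoma cells among them, make it mainly after interferon-gamma.

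Each group had 1 array, so replicates cannot be used to judge any difference below, and precision is limited by how few arrays there are. The shRNA arrays are called the stable pair (vector control and shRNA knockdown) and the siRNA arrays the transient pair (luciferase control and siRNA knockdown). Values are the deposited log2 values, and differences are knockdown minus control on that scale, where 1 unit is 2-fold. Array medians lay between 5.34 and 5.37. ZEB2 read 6.12 and 3.52 in the vector control and shRNA knockdown, and 6.56 and 3.51 in the luciferase control and siRNA knockdown. The array of the vector control stood farther from the others than any other array. It was at least 2-fold above each of the other 3 arrays for 141 genes and at least 2-fold below them for 262, against 36 and 73 for the shRNA knockdown and at most 6 either way for an siRNA array. Every stable-pair and control-pair value below rests on that array, and the values without it, shRNA knockdown against luciferase control, are given further on.

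By the brightest probe set, all of the class II genes except HLA-DOA had their highest value in the vector control. For CIITA, near the filter level, the vector control was above the next array by only 0.48. The share of all genes highest in that array was not computed, so nothing about the members is read from this. In the shRNA knockdown 8 of the 10 were at least 2-fold lower than in that control. Across all 15082 genes the share at least 2-fold lower in this pair was 2.08%. The members were chosen with this contrast in view, so nothing is read from that gap. In the transient pair 0 of the 10 were 2-fold lower, against 0.126% of all genes, and 0 were 2-fold higher, against 0.0464%. The median difference over the 10 was -1.94 in the stable pair and -0.00032 in the transient pair, where all genes had medians of -0.024 and -0.018. Each array read the RNA of a whole culture, so fewer cells making class II and less class II RNA per cell cannot be told apart.

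**Figure D1:**
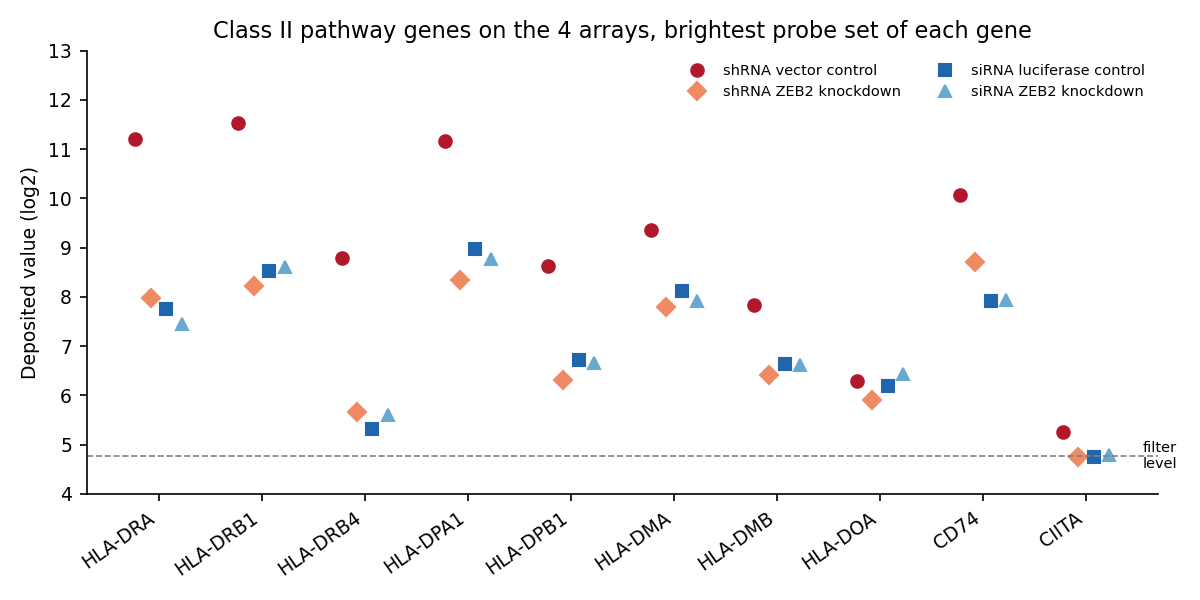
Deposited log2 values (vertical axis) of the brightest probe set of each of the 10 genes (horizontal axis) on the 4 arrays, 1 point per array, with the filter level of 4.77 as a dashed line. For 8 genes the shRNA vector control lies alone at the top, at least 2-fold above the other 3 arrays. For CD74 the shRNA knockdown lies between that control and the siRNA arrays. HLA-DOA and CIITA do not show a 2-fold gap.

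By their brightest probe sets, the DR genes differed most. HLA-DRA encodes the DR alpha chain, which pairs with every DR beta chain. It read 11.20 in the vector control, 7.99 in the shRNA knockdown, 7.76 in the luciferase control and 7.45 in the siRNA knockdown. The vector control was the high array, and the other 3 lay within 0.54 of each other. HLA-DRA was thus 9.28-fold lower in the shRNA knockdown than in its control, a difference of -3.21, and differed by -0.31 in the transient pair. Its second probe set gave -3.25 and -0.29.

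HLA-DRB1, the DR beta chain gene that every haplotype carries, read 11.52, 8.23, 8.53 and 8.61 on the vector control, shRNA knockdown, luciferase control and siRNA knockdown. It was 9.81-fold lower in the shRNA knockdown and differed by 0.08 in the transient pair. HLA-DRB4, a further DR beta gene carried by some haplotypes only, read 8.79, 5.66, 5.33 and 5.59 in the same order. Its differences were -3.13 and 0.27. With the mean of its 3 probe sets they were -1.55 and 0.31, smaller in the stable pair than the -2.87 of HLA-DPA1 by the same measure. For each of these genes the vector control was again alone at the top, by 2.91 for HLA-DRB1 and 3.13 for HLA-DRB4 over the next array.

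The DR beta values cannot be given to 1 gene with confidence. The only probe set with HLA-DRB1 as its sole symbol is of the cross-hybridising kind, whose name ends in _x_at and which can read near-identical copies. A further 5 probe sets carry a member's symbol together with others, all of them DR beta genes with or without HLA-DQB1, and they were used in no count. Of these, 4 passed the filter, all 4 of them _x_at, and they differed by between -3.56 and -2.27 in the stable pair and between -0.20 and -0.02 in the transient pair. The probe set at -2.27 passed through the vector control alone, at 6.49. It read 4.21, 4.31 and 4.25 on the shRNA knockdown, luciferase control and siRNA knockdown, under the filter level. The other 2 probe sets of HLA-DRB4 never reached 4.77, with differences of 0.18 and -1.71 in the stable pair.

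Promoter sequence is shown here because these genes are known to be switched on through shared X and Y boxes, and because 8 of the 10 stood high on the same array. The sequences are from RefSeq, build GRCh38.p14, in windows from 250 bases before to 50 bases after each annotated start. Of the 10 genes 7 had a window, HLA-DPA1 had 2, and HLA-DRA, HLA-DRB4 and CIITA had none in the table used. Capitals mark letters that match an X-like motif, AGNNACNGA, or the Y motif ATTGG, which on the opposite strand reads CCAAT. The X-like letters were chosen with these sequences in view. Each stretch below reads 5′ to 3′ on the gene's own strand and ends before the annotated start.
HLA-DRB1, chr6:32589883-32589947, minus strand: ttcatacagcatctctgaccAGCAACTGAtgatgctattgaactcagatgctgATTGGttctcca
HLA-DMA, chr6:32953166-32953230, minus strand: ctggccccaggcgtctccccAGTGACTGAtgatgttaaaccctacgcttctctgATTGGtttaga
HLA-DOA, chr6:33009648-33009712, minus strand: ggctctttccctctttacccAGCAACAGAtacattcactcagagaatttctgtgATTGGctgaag
HLA-DMB, chr6:32941072-32941136, minus strand: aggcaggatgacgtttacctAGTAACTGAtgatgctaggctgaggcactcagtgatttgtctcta
HLA-DPA1, chr6:33073704-33073768, minus strand: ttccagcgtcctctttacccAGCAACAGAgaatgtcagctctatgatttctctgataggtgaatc
HLA-DPB1, chr6:33075885-33075939, plus strand: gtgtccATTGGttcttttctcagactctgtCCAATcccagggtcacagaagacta
CD74, chr5:150412939-150412993, minus strand: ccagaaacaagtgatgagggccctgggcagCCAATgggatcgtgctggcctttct

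HLA-DRB1, HLA-DMA and HLA-DOA carry the X-like motif followed by ATTGG on the gene's strand, with 33, 34 and 34 bases from the first letter of one to the first letter of the other. In HLA-DMB and in the second HLA-DPA1 window the X-like motif stands without ATTGG behind it. HLA-DPB1 and CD74 hold the Y motif without the X-like one. Searched on both strands, AGNNACNGA was in 5 of the 8 member windows and in 15.3% of the 35116 windows of all genes, and ATTGG in 6 of 8 and 34.6%. The motifs in that order, starting at most 40 bases apart, were in 3 of 8 and in 0.43%. The 2 motifs share no letters in such a pair. HLA-DRB1 and HLA-DMA were more than 2-fold lower in the shRNA knockdown and HLA-DOA, with the same pair of motifs, differed by -0.38. Of 62 other genes that held the pair and passed the filter, 2 were at least 2-fold lower in the stable pair. That is 3.23%, against 2.08% of all 15082 genes kept, of which 11984 had a window. The share among those 11984 was not computed. Another 2 were at least 2-fold higher there, for which the share of all genes was not computed. In the transient pair 0 differed 2-fold, against 0.126% of all genes lower and 0.0464% higher. Nothing about the motif pair is read from these counts. A match is a run of letters and not a measured binding site.

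**Figure D2:**
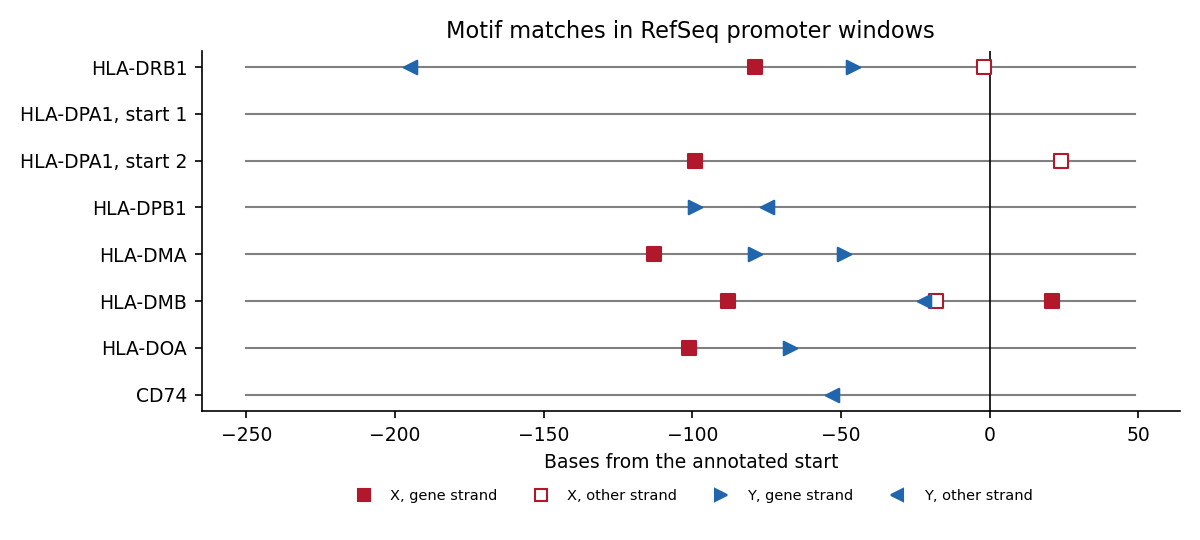
Position of each motif match (horizontal axis, bases from the annotated start) in the RefSeq windows of the 7 genes that had one, 1 line per window. Squares are the X-like motif, filled on the gene's strand, and triangles are the Y motif, pointing right on the gene's strand. In HLA-DRB1, HLA-DMA and HLA-DOA a filled square is followed by a right-pointing triangle.

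The DP genes, which encode the alpha and beta chains of HLA-DP, followed the DR genes at a smaller size. HLA-DPA1 read 11.16 in the vector control, 8.34 in the shRNA knockdown, 8.97 in the luciferase control and 8.76 in the siRNA knockdown. The shRNA knockdown was the lowest of the 4, 7.07-fold below its control, and the transient-pair difference was -0.21. All 3 HLA-DPA1 probe sets gave a like picture, at -2.82, -3.07 and -2.71 in the stable pair and -0.21, -0.36 and 0.05 in the transient pair. HLA-DPB1 read 8.62, 6.31, 6.71 and 6.65 in the same order of arrays. It was 4.96-fold lower in the shRNA knockdown and differed by -0.06 in the transient pair. Its other probe set stayed between 3.59 and 3.71, under the filter level, and differed by 0.01 and -0.12. The mean of the pair of probe sets put HLA-DPB1 at -1.15 in the stable pair.

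HLA-DMA and HLA-DMB encode the chains of the peptide editor HLA-DM, and each has 1 probe set. HLA-DMA read 9.37 in the vector control, 7.79 in the shRNA knockdown, 8.12 in the luciferase control and 7.91 in the siRNA knockdown. HLA-DMB read 7.84, 6.41, 6.63 and 6.61. In both genes the vector control was the high array, by 1.24 and 1.21 over the next, and the other 3 spanned 0.33 and 0.22. The shRNA knockdown was 2.98-fold lower for HLA-DMA and 2.70-fold lower for HLA-DMB, and the transient pair differed by -0.21 and -0.02.

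HLA-DOA, the alpha chain of the HLA-DM inhibitor HLA-DO, did not share the pattern by its brightest probe set. It read 6.29, 5.91, 6.20 and 6.43 in that order, with the siRNA knockdown highest. Its differences were -0.38 in the stable pair and 0.23 in the transient pair. That probe set is of the _x_at kind, and the 5 HLA-DOA probe sets lay between -0.50 and 0.01 in the stable pair. Without the 2 cross-hybridising ones the brightest gave 0.01 and 0.03, and was highest in the shRNA knockdown, at 5.47. The probe set at -0.50 in the stable pair was highest in the vector control, at 5.34. It read 4.85, 4.89 and 5.16 on the shRNA knockdown, luciferase control and siRNA knockdown.

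CD74 read 10.06 in the vector control, 8.71 in the shRNA knockdown, 7.91 in the luciferase control and 7.94 in the siRNA knockdown. Here the shRNA knockdown lay between its own control and the siRNA arrays, 0.79 above the luciferase control. The stable-pair difference was -1.35, or 2.55-fold lower, and the transient-pair difference 0.02. A second CD74 probe set gave -1.46 and 0.11. The third, which spanned 5.03 to 5.43 over the 4 arrays, gave -0.05 and 0.40. With the mean of all 3 probe sets CD74 differed by -0.95 in the stable pair and so fell short of 2-fold.

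CIITA, the coactivator that the other genes depend on, was dim on every array. Its brightest probe set gave 5.26 in the vector control, 4.74 in the shRNA knockdown, 4.74 in the luciferase control and 4.78 in the siRNA knockdown. The vector control was the high array by 0.48, and the other 3 lay around the filter level of 4.77 within 0.04. The differences were -0.52 in the stable pair and 0.04 in the transient pair. The other CIITA probe sets differed by -0.28 and -0.48 in the stable pair and by 0.76 and -0.02 in the transient pair, and all 3 were highest in the vector control. So near the filter level these values do not bound a change in CIITA.

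**Figure D3:**
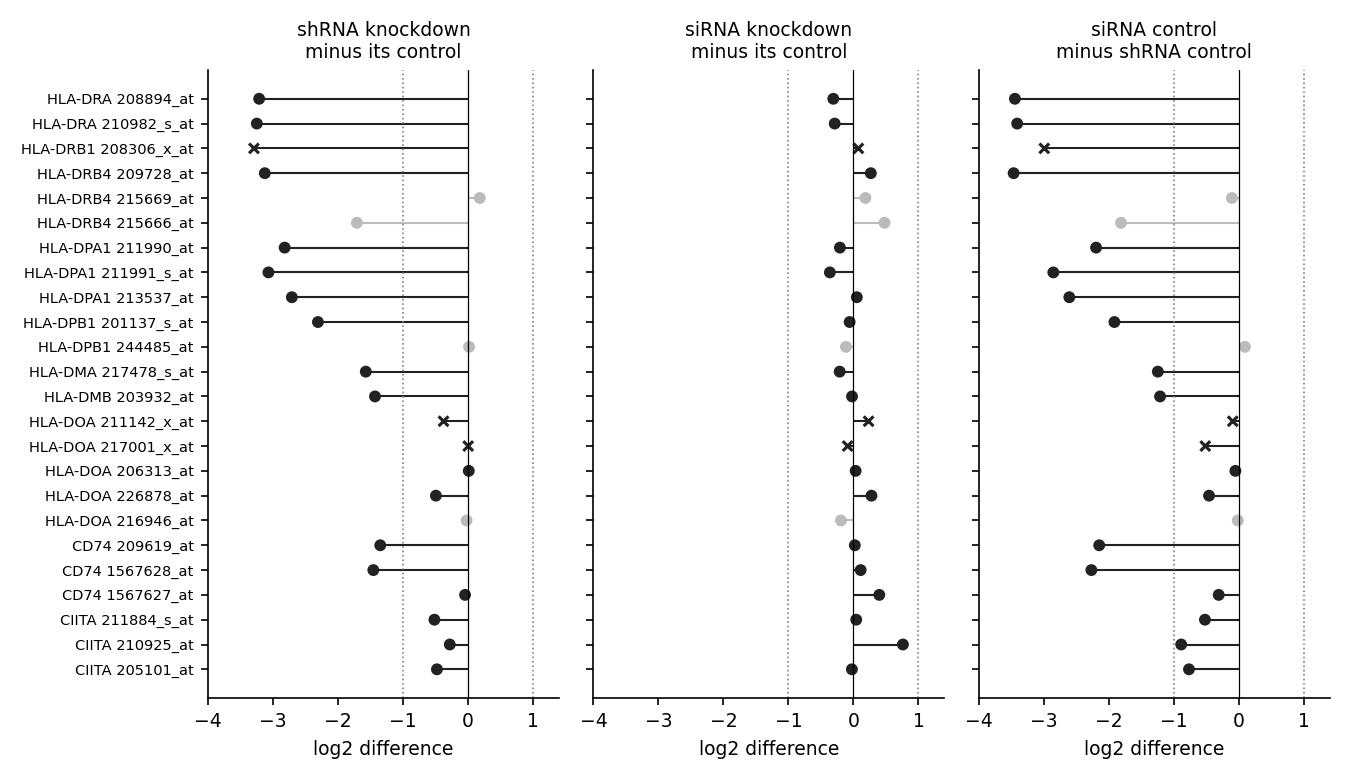
Log2 differences (horizontal axes) of all 24 probe sets (rows, grouped by gene) for the shRNA (stable) pair, the siRNA (transient) pair and the control arrays. Crosses are probe sets of the _x_at kind, grey ones stayed under the filter level on every array, and dotted lines mark 2-fold. In the left panel 13 probe sets lie past 2-fold on the low side, in the middle panel none lies past 2-fold in either direction, and the right panel shares the shRNA control array with the left one.

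Over probe sets, 20 of the 24 reached the filter level on at least 1 array, and 16 of these 20 read higher in the vector control than on every other array. A further 1, an HLA-DOA probe set of the _x_at kind, read 6.41 on both arrays of the stable pair. A CIITA probe set among the 16 reached the filter level in the vector control alone, at 4.88. The share of all probe sets that were highest in the vector control was not computed, so nothing about the members is read from the 16. At least 2-fold lower in the stable pair were 13 probe sets, of which 12 reached the filter level. Among all 29214 probe sets with 1 symbol that reached it, the share was 2.13%, a contrast that was in view when the members were chosen. In the transient pair 0 of the 24 were 2-fold different, against 0.243% of the 29214 in either direction, and the largest difference was the 0.76 of a CIITA probe set.

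The control arrays were compared next, since neither comes from cells with a ZEB2 knockdown. In the luciferase control 8 of the 10 genes were at least 2-fold lower than in the vector control, against 4.99% of all genes. They were the same 8 that were lower in the shRNA knockdown, and both comparisons use the vector control array. HLA-DRA differed between the controls by -3.44, HLA-DRB4 by -3.46, HLA-DRB1 by -2.99, HLA-DPA1 by -2.19, CD74 by -2.15, HLA-DPB1 by -1.91, HLA-DMA by -1.24 and HLA-DMB by -1.21. CIITA differed by -0.52 and HLA-DOA by -0.09. With the mean of all probe sets HLA-DPB1 differed by -0.91 and fell short of 2-fold, and HLA-DRB4 differed by -1.79. By that mean CIITA differed by -0.72 and HLA-DOA by -0.23, both more than by their brightest probe sets. In the vector control the same 8 genes exceeded each of the other 3 arrays by 2-fold or more, a property of 0.935% of all genes. The members were chosen with earlier results of these arrays in view, and both counts rest on the vector control array. Nothing is therefore read from the gap between either count and its share of all genes.

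The shRNA knockdown was next set against the luciferase control, without the vector control array. Against the luciferase control the median difference of the 10 genes was -0.26, and it ranged from -0.63 for HLA-DPA1 to 0.79 for CD74. HLA-DRA differed by 0.23, HLA-DRB4 by 0.33 and HLA-DRB1 by -0.30. Over all genes the median of this comparison was -0.087 and the standard deviation 0.676. Of the 10 genes 0 were 2-fold different in either direction, against 11.3% of all genes, and nothing particular to the 10 is read from that count. ZEB2 read 3.52 and 6.56 on these arrays. Method, RNA input and ZEB2 level all differ between those arrays and cannot be told apart.

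**Figure D4:**
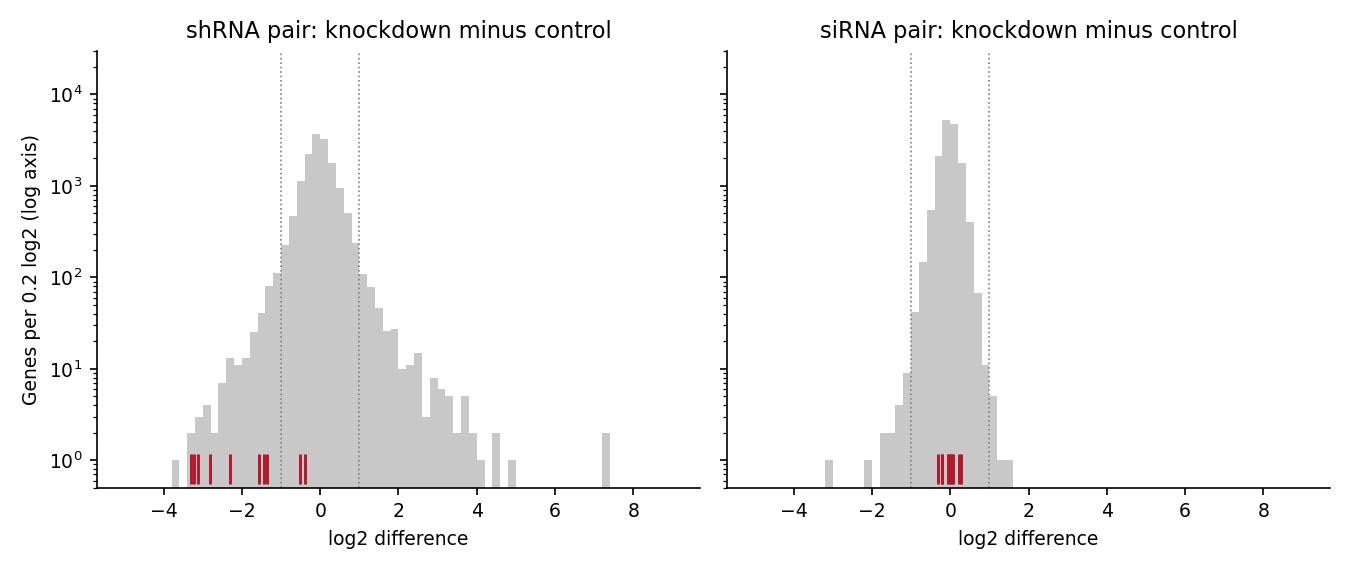
Number of genes (vertical axis, log scale) per 0.2 of log2 difference (horizontal axis) among the 15082 genes kept, for the shRNA pair and the siRNA pair. Red ticks are the 10 class II pathway genes and dotted lines mark 2-fold. In the shRNA pair the ticks run from -3.29 to -0.38, and in the siRNA pair from -0.31 to 0.27.

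Other class II chain genes were thinly measured. Of 9 listed, 6 had a probe set with 1 symbol and 4 passed the filter. Of these 4, 1 was at least 2-fold lower in the shRNA knockdown, against 2.08% of all genes. The gene was the pseudogene HLA-DRB6, read by an _x_at probe set. Its values were 7.33, 5.49, 5.49 and 5.27 on the vector control, shRNA knockdown, luciferase control and siRNA knockdown. HLA-DQB1, the DQ beta chain gene, read 7.02, 6.03, 6.44 and 6.34, with a stable-pair difference of -0.98, short of 2-fold, also on an _x_at probe set. HLA-DQA1, the DQ alpha chain gene, stayed between 4.68 and 4.72 on all 4 arrays, under the filter level. HLA-DOB, the partner of HLA-DOA, read between 5.23 and 5.48.

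Genes of other kinds that lie among the class II genes on chromosome 6 were also lower in the stable pair, by less than 2-fold. By RefSeq order, 5 protein-coding genes of other kinds that were measured lie between HLA-DRA and HLA-DPB1. They are TAP1 and TAP2, subunits of the class I peptide transporter, PSMB8 and PSMB9, subunits of the immunoproteasome, and BRD2, a chromatin reader. Their stable-pair differences ran from -0.58 to -0.13 and their transient-pair differences from -0.20 to 0.03. In either pair 0 of 5 were 2-fold lower, where 2.08% and 0.126% of all genes were 2-fold lower, and 0 were 2-fold higher. Their median was -0.53 in the stable pair, where all genes had a median of -0.024 and a standard deviation of 0.499. TAP1, TAP2, PSMB8 and PSMB9 are counted again among the class I genes below, whose median in that pair was -0.37. Whether the chromosome 6 region has a part in these values was not tested. TAP2 and BRD2 were, like the class II genes, highest in the vector control. Between the controls TAP1 differed by 1.17 and BRD2 by -1.02, in opposite directions.

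Genes of MHC class I presentation, which displays cytosolic peptides to CD8+ T cells, were measured for comparison. Of 21 listed, 19 passed the filter, and their median difference was -0.37 in the stable pair and -0.06 in the transient pair. In the stable pair 1 of the 19 was 2-fold lower, against 2.08% of all genes, and nothing is read from that count. The gene was NLRC5, which acts on class I promoters as CIITA acts on those of class II. NLRC5 read 7.42, 6.39, 6.07 and 5.48 on the vector control, shRNA knockdown, luciferase control and siRNA knockdown. The vector control was its highest array too, and its differences were -1.03 and -0.59.

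The factors that sit on class II promoters did not differ 2-fold in any comparison. Of 8 listed 7 were measured, and their median difference was 0.07 in the stable pair and -0.01 in the transient pair. RFXANK, a subunit of the RFX complex, differed most in the stable pair on the high side, at 0.39 and -0.14 in the transient pair. NFYB, a subunit of NF-Y, differed by -0.28 and 0.03. Of the interferon-gamma route to CIITA, 8 of 10 listed genes passed the filter and 0 were 2-fold different in either pair, with medians of -0.24 and -0.08. JAK1, a kinase of the interferon receptors, differed by 0.35 and -0.19 and was 1.13 higher in the luciferase control than in the vector control. IFNG itself stayed between 3.25 and 3.50, under the filter level. Of 6 factors known to act on CIITA transcription, 5 passed the filter and 0 were 2-fold different in either pair. PRDM1, a repressor of CIITA, differed by 0.40 and -0.23, and IRF4 by -0.14 and 0.38. Of all genes 2.08% were 2-fold lower in the stable pair and 0.126% in the transient pair. In lists this short, counts of 0 are near those shares and are not read as a result about their genes.

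Genes that act after transcription on class II or on its peptides showed no 2-fold difference in either pair. Of all genes 2.08% were 2-fold lower in the stable pair and 0.126% in the transient pair. Nothing is read from the lack of such a difference in lists this short. Of 10 proteases and related genes 9 passed the filter, with medians of -0.43 in the stable pair and -0.06 in the transient pair. CTSS, the cathepsin that trims the invariant chain, read 8.19, 7.36, 9.80 and 9.59 on the vector control, shRNA knockdown, luciferase control and siRNA knockdown. It was higher on the siRNA arrays, the reverse of CD74. All 8 genes of ubiquitination and sorting passed, with medians of 0.01 and -0.10. Their adaptor subunit genes AP1S1 and AP2M1 differed between the controls by 1.13 and -2.06 and in the stable pair by -0.06 and -0.18. Of 8 co-stimulatory and adhesion genes 7 passed, with medians of 0.15 and -0.005. Among them the adhesion gene ICAM1 differed by 0.49 and 0.10 and was 2.59 higher in the luciferase control than in the vector control.

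**Figure D5:**
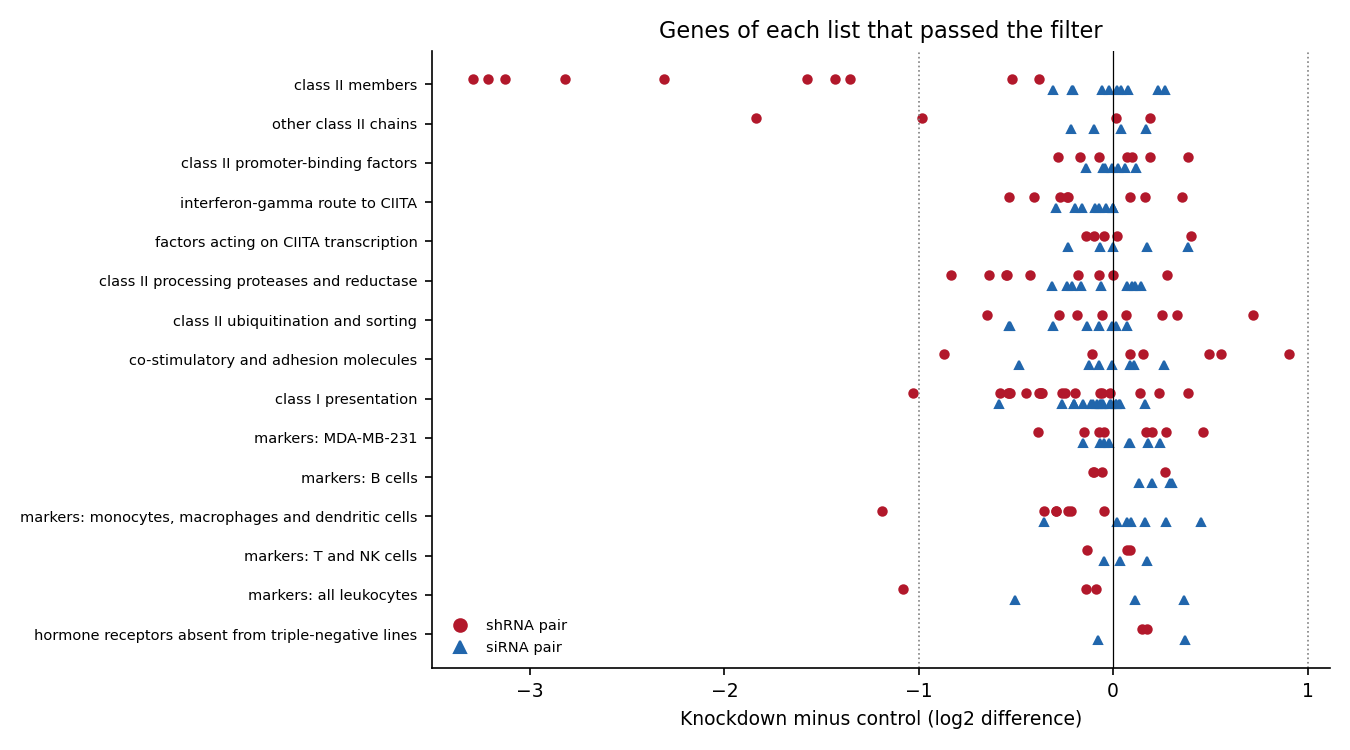
Log2 difference (horizontal axis) of every gene that passed the filter in the class II set and in 14 other lists (rows), circles for the shRNA pair and triangles for the siRNA pair, with dotted lines at 2-fold. Outside the 10 genes, circles past 2-fold on the low side belong to HLA-DRB6, NLRC5, LYZ and LAPTM5, and no triangle lies past 2-fold.

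Markers of the line and of cells that make class II constitutively were read on the same arrays. Of 8 genes listed for MDA-MB-231, 7 read at least 10.59 on every array, while SPARC lay between 4.45 and 4.88. EGFR was the 1 gene of that list to differ 2-fold in a comparison, at 1.07 between the controls. PGR was under the filter level, ESR1 read between 6.08 and 6.54 and ERBB2 between 7.83 and 7.97. The summed level of 5 B cell markers, on the log2 scale, was 7.59 in the vector control and 7.57 in the shRNA knockdown, and 7.26 and 7.48 on the siRNA arrays. MS4A1, which encodes CD20, was under the filter level everywhere. PAX5 differed by 0.27 and 0.29, and BLK by -0.10 and 0.30.

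For 9 monocyte, macrophage and dendritic cell markers the summed level was 8.35 and 8.08 on the shRNA arrays and 8.71 and 8.70 on the siRNA arrays. Without CD14 it was 8.17 in the vector control, 7.91 in the shRNA knockdown, 8.03 in the luciferase control and 8.19 in the siRNA knockdown. LYZ differed by -1.19 in the stable pair, between 4.70 and 3.51 and so at the dim end. CD14 was higher by 2.08 in the luciferase control than in the vector control. For 7 T and NK cell markers the sums were 7.74 on both shRNA arrays and 7.58 and 7.67 on the siRNA arrays, with CD3E at -0.14 and 0.03 and CD247 at 0.07 and 0.17. PTPRC, which encodes the leukocyte antigen CD45, stayed between 3.44 and 3.87, under the filter level. LAPTM5, a lysosomal protein gene of leukocytes, read 9.52, 8.44, 9.50 and 9.62, a difference of -1.08 in the stable pair, with the shRNA knockdown alone low. The 4 leukocyte markers summed to 9.88 and 9.07 on the shRNA arrays and to 9.91 and 9.93 on the siRNA arrays. LAPTM5 was the brightest of the 4 on every array and weighs most in these sums. In the stable pair the others differed by -0.17, -0.09 and -0.14. The part of any of these markers in the class II differences was not tested.

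The genes whose 4 values, after subtraction of their own mean, lay nearest to those of HLA-DRA were then listed, over 4 arrays and with the root-mean-square distance as the measure. Of the other members HLA-DRB4 was nearest, at 0.24, then HLA-DRB1 at 0.37 and HLA-DPA1 at 0.57. CIITA was at rank 1694 and HLA-DOA at rank 6323 among the genes kept. Outside the set the nearest were HCLS1, a signalling adaptor of blood cells, at 0.16, C3orf70 at 0.16, the phosphatase gene PTPN22 at 0.19 and the gap junction gene GJB2 at 0.19. RNF128, a ubiquitin ligase gene, followed at 0.31, then AADAC at 0.32, PKIA, an inhibitor of protein kinase A, at 0.33 and DEPDC7 at 0.35. HCLS1 read 7.33, 4.32, 3.66 and 3.51 on the vector control, shRNA knockdown, luciferase control and siRNA knockdown. HCLS1, C3orf70 and DEPDC7 passed the filter through the vector control alone, so their likeness rests on values under the filter level on the other 3 arrays. GJB2 read 9.41, 6.37, 6.07 and 6.17. The measure rests on 4 arrays. In each of these 8 genes the vector control was the highest, which follows from their choice by likeness to HLA-DRA.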

How the data were processed

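The deposited file holds log2 values per probe set of Affymetrix U133 Plus 2 arrays, 1 array per group, which the authors computed by RMA (affy), per the submitters' processing notes. Versions are not given in the sources used here. This method gives the arrays a common distribution, so a change in total RNA is hidden. The sorted values lay within 0.0805 of their mean. Of 54675 probe sets, 41097 had 1 symbol in the platform annotation, 1801 several and 11777 none here, and 0 columns belonged to other series. Each gene took the probe set with the highest 4-array mean, and was kept when its highest value reached the 40th percentile of all values (4.77). Differences were counted at 2-fold. No test was run: groups have 1 array, and the members and lists were chosen with earlier results of these data known. Named genes were all members, ZEB2, each list's members at 2-fold in any comparison (otherwise the 2 with the largest knockdown difference) and the 8 nearest to HLA-DRA. HLA-DQB1, HLA-DQA1, HLA-DOB, TAP2, PSMB8, PSMB9, BRD2, IFNG, PGR, SPARC, MS4A1 and PTPRC were added after their values were seen. Alternatives were the mean of probe sets, no _x_at probe sets, other filters, folds and scalings, and, after the values were seen, a marker sum without CD14 (limma 3.58.1, R 4.3.3). The counting was checked on simulated data. Python 3.11.15 and matplotlib 3.10.9 were used.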

Additional observations from a re-analysis of the deposited data

Results flagged for a closer look

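For 5 of the 10 genes the knockdown minus control difference had opposite signs in the shRNA and siRNA pairs, and with 1 array per group the gap between the pairs was not tested. The siRNA difference minus the shRNA difference was 3.37 for HLA-DRB1, 3.40 for HLA-DRB4 and 1.37 for CD74, whose siRNA differences of 0.08, 0.27 and 0.02 were small beside their shRNA differences. It was 0.61 for HLA-DOA and 0.56 for CIITA, whose differences were under 2-fold in both pairs. The share of all genes with opposite signs was not computed. All genes had a standard deviation of 0.235 in the siRNA pair, so the count of 5 is not read as a result about the members.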

How the results depend on the processing

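The siRNA and control-pair counts and the shRNA and control-pair medians stayed within 1.5 times of their reported values under every alternative that could be run. The shRNA count of 8 was 7 with the mean of probe sets (without CD74) or without _x_at probe sets (without HLA-DRB1, which then has none), and 5 at 3-fold. The siRNA median of -0.00032 was near 0 throughout, at 0.015 with the mean of probe sets, -0.022 without _x_at probe sets or with the filter at the 60th percentile, -0.017 with median centring, 0.014 with quantile normalization and -0.0069 with cyclic loess. The 16 gene differences at 2-fold kept their sign in 78 of 78 alternatives stayed at 2-fold in 76 and moved by at most 1.5 times in 74. The exceptions to the last were HLA-DRB4 and HLA-DPB1 in the shRNA and control pairs, with the mean of probe sets. The count of genes lower in the siRNA control was added after the values were seen, since the planned count of genes higher there was 0. A filter cannot alter a gene's own difference. Values under 4.77, CIITA on 2 arrays among them, are limited by signal over background, which was not analysed here.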

Other observations

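Some deposited values were equal to the last digit on different arrays, as for CIITA on the shRNA knockdown and siRNA control arrays. This held for 0.459% of probe sets between those 2 arrays, 0.399% within the shRNA pair, 0.759% within the siRNA pair and 0.51% between the controls.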
